A study of Mus musculus with 12 samples.

Results

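The mitochondrial carriers named Slc25 were followed across mouse skeletal muscle and cultured muscle cells on one-colour Agilent microarrays. A gene belonged to the family when a probe of the array that was not a control carried a gene name beginning with Slc25a and a digit, and the probe with the highest signal stood for its gene. This gave 42 of the 27597 genes named on the array, represented by 71 probes. The 4 groups held 3 arrays each. Soleus, a slow oxidative hind limb muscle, and extensor digitorum longus (EDL), a fast glycolytic one, came from male CD1 mice aged 3 months, and the left and right muscles of a mouse made up each sample. C2C12 myotubes, the fused cells of a mouse muscle line, were taken 96 hours after the start of differentiation in medium with horse serum, and were separated from mononucleated cells by trypsin and brief replating. C2C12 myoblasts, the dividing precursors of the same line, were collected at about 50% confluence in medium with fetal bovine serum. The cultures come from 1 immortalised line, and the muscles are whole tissue with vessels, nerve and connective tissue. Separate growth of the replicate cultures is not stated, and all p-values reflect the scatter among these samples alone, which may be technical.

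Carriers of this family sit in the inner mitochondrial membrane, where most of them exchange a metabolite of the matrix for one of the intermembrane space. They are built from a repeated unit of paired membrane helices and open alternately to either side, as worked out mainly on the bovine ADP/ATP carrier. In muscle they deliver ADP and phosphate to the ATP synthase, return ATP to the myofibrils, bring in acylcarnitines for fatty acid oxidation and move aspartate and malate for the shuttle that carries reducing equivalents from the cytosol. A few members lie elsewhere, in the peroxisome or the outer mitochondrial membrane.

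Levels are log2 signals scaled to the 75th percentile of their array. A gene was called higher or lower when limma's adjusted p, taken over all 18867 genes tested, was under 0.05 and the log2 difference was at least 1. Of all spots, 57.98% to 73.2% were well above background on an array, and replicate arrays correlated with r of 0.982 to 0.996 across genes, which are not independent replicates. The unscaled 75th percentile lay between 476 and 641 on the muscle arrays, against 1064 to 1645 on the culture arrays. Scaling to 7 spike-in control probes instead lowered every gene by 1.18 for soleus and 0.96 for EDL against myotubes, by 0.38 for myotubes against myoblasts and by 0.22 for soleus against EDL, so the differences given here are relative to the bulk of the transcripts. Every slide held all groups at the same array positions, and effects of group and array position cannot be told apart.

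The muscle labels were borne out by fibre genes: Myh7 of slow fibres was 3.30 higher in soleus than in EDL on the log2 scale, while Pvalb of fast fibres was 4.78 lower, and 13 of 14 muscle fibre genes rose in myotubes over myoblasts. All 7 markers of dividing cells fell in myotubes, where their summed signal was 1360 to 1640, against 67700 to 80800 in myoblasts, and 5 of the 7 fell further in each muscle. Tk1 was 2.06 higher in EDL than in myotubes, and the summed signal of the list was 1400 to 1660 in EDL and 747 to 896 in soleus, so only the soleus sum lay below that of myotubes. Most markers of other cell types were higher in both muscles than in myotubes, apart from those of brown adipocytes. All 12 endothelial genes rose in EDL, where their sum was 53600 to 56400, against 687 to 1020 in myotubes, and all 12 rose in soleus (60400 to 61500). Of 14 macrophage and leukocyte genes, 12 rose in each muscle, and Ptprc, Adgre1, Cd163, C1qa, C1qc, Cd52, Laptm5 and Tyrobp were well above background on no myotube array. Connective tissue genes rose for 12 of 12 in soleus and 11 of 12 in EDL, all 5 measured adipocyte genes and all 7 Schwann cell genes rose in each, smooth muscle and pericyte genes rose for 7 of 8 in soleus and 6 of 8 in EDL, and of 3 measured erythroid genes 2 rose in soleus and 3 in EDL. Of 3 brown adipocyte genes, Cidea rose in soleus (5.02) and in EDL (1.75). Ucp1 was also called higher in EDL, but was well above background on no muscle or myotube array. Elovl3 was well above background on 1 myotube array only. In bulk RNA, more cells of a type and more RNA per cell cannot be told apart, and the part of these cells in the carrier differences between muscle and culture was not tested.

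The promoters of 3 carriers are shown because their genes behaved differently in these arrays: Slc25a4 rose in muscle, its paralog Slc25a5 did not, and Slc25a3 holds a motif match. They are RefSeq windows of build GRCm38.p6 from 250 bases before the transcript start to 50 bases after it, written 5′ to 3′ on the strand of the gene. Slc25a4 lies at chr8:46211013-46211312 (minus strand), Slc25a5 at chrX:36795347-36795646 (plus strand) and Slc25a3 at chr10:91123918-91124217 (minus strand), and capitals mark the match to the nuclear respiratory factor 1 motif.
Slc25a4: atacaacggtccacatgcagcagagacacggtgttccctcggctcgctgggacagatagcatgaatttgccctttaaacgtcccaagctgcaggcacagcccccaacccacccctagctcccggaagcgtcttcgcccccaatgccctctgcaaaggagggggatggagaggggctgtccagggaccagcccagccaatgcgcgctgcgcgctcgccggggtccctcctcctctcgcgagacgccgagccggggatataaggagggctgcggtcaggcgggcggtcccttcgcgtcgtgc
Slc25a5: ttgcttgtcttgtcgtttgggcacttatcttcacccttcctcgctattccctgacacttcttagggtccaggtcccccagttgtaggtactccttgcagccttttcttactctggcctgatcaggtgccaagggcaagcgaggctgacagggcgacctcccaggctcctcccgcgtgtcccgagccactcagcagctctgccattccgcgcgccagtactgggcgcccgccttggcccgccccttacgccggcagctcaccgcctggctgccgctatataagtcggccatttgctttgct
Slc25a3: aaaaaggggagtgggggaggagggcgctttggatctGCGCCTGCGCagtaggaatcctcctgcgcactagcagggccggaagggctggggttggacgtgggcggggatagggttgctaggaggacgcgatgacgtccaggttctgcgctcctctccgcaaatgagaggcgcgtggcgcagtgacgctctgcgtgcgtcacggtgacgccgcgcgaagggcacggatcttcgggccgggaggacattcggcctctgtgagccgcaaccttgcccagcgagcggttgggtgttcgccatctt

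Both strands of these windows were searched for the core of the nuclear respiratory factor 1 motif and for AAGGTCA, an oestrogen-related receptor site. RefSeq windows were given for 32 of the 42 members. The first motif was found in 2 of them, Slc25a3 at 214 bases before the start and Slc25a31 at 45 bases, which is 6.25% of members beside 5.19% of all 27025 genes with a window. The second was found in 1 member, Slc25a34, which is 3.12% beside 5.38%. A match is a description of letters only.

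Of the 42 members, 38 passed the filter, which asked that every array of some group measure the probe well above background. Slc25a31, the ADP/ATP carrier of testis, was well above background on no array. Slc25a21, the oxoadipate carrier, was above it on 1 soleus array only. Slc25a41, a short relative of the ATP-Mg/phosphate carriers, was above background on 2 soleus, 2 EDL, 1 myotube and 0 myoblast arrays. The levels of Slc25a41 were 4.56, 4.94 and 4.87 in soleus and 4.73, 5.59 and 5.43 in EDL. For Slc25a41 the myotube arrays gave 2.04, 2.83 and 3.65, against 1.37, 1.92 and 1.71 for the myoblast arrays. The ATP-Mg/phosphate carrier Slc25a23 was above background on 2 of the 3 arrays in every group. Slc25a23 read 4.55, 5.54 and 5.55 on the soleus arrays and 4.78, 6.19 and 5.85 on the EDL arrays. In culture, Slc25a23 read 3.83, 4.93 and 4.84 in myotubes and 2.74, 4.42 and 4.88 in myoblasts. Its groups overlapped.

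Against myotubes, 14 members rose and 8 fell in EDL, which is 57.9% of the 38 tested, beside 47.9% of all genes (28.4% higher and 19.6% lower). In soleus 15 rose and 7 fell against myotubes, again 57.9%, beside 45.3% of all genes (26% higher and 19.3% lower). In myotubes, 5 members rose and 7 fell against myoblasts (31.6%, beside 35.4% of all genes, 19.3% higher and 16.1% lower). Soleus and EDL differed in 6 members, with 3 higher and 3 lower in soleus (15.8%, beside 9.73%, of which 4.92% higher and 4.81% lower). Against myoblasts, 17 rose and 9 fell in EDL (68.4%, beside 57.9% of all genes, 33.8% higher and 24.2% lower), and 16 rose and 10 fell in soleus (68.4%, beside 55.5%, of which 31.4% higher and 24.1% lower).

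The median difference of the members was 0.62 for soleus and 0.65 for EDL against myotubes, with medians of 0.15 and 0.23 over all genes, and spike-in scaling turned the member medians to -0.56 for soleus and -0.31 for EDL. It was 0.16 in myotube minus myoblast and -0.06 in soleus minus EDL, beside 0.06 and -0.05 over all genes. The highest group mean fell in EDL for 14 members (36.8%, beside 29.7% of all genes), in soleus for 10 (26.3%, beside 20.3%), in myotubes for 5 (13.2%, beside 20.2%) and in myoblasts for 9 (23.7%, beside 29.8%). Comparisons that share the myotube arrays are not independent of each other. Under spike-in scaling 5 members were higher and 12 lower in EDL than in myotubes (44.7%, beside 53.7% of all genes, 14% higher and 39.7% lower). In soleus 4 were higher and 17 lower (55.3%, beside 59.6%, of which 11.9% higher and 47.6% lower). The member share thus lay below that of all genes, while under the main scaling it lay above. Over all genes the higher share of calls moved to 26% in EDL and 20.1% in soleus, from 59.2% and 57.4%. In myotube minus myoblast it moved to 36.9% from 54.5%, with 2 members higher and 10 lower (31.6%, beside 33.1% of all genes). In soleus minus EDL it moved to 37.2% from 50.6%, with 1 member each way (5.26%, beside 4.5%). Against myoblasts, spike-in scaling left 8 members higher and 16 lower in EDL (63.2%, beside 64% of all genes, 16.1% higher and 47.9% lower). In soleus it left 6 higher and 18 lower (63.2%, beside 68.9%, of which 14.5% higher and 54.4% lower). The higher calls that stood under both scalings included Slc25a4, Slc25a11, Slc25a12 and Slc25a26 in EDL, and Slc25a4, Slc25a11, Slc25a12 and Slc25a13 in soleus.

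**Figure D1:**
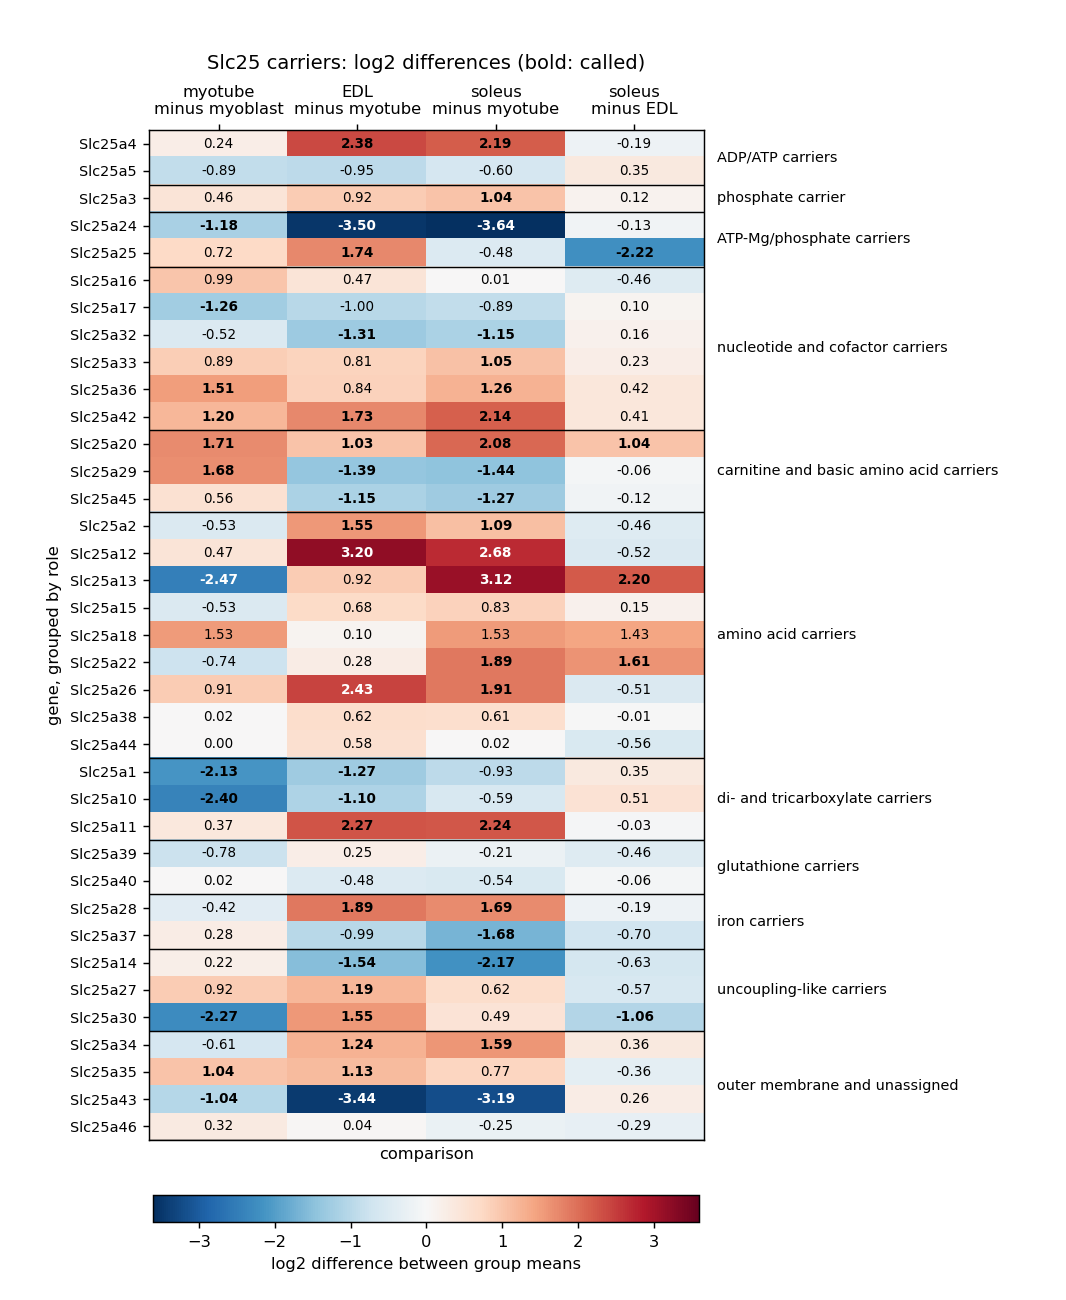
Log2 differences of 37 tested carriers (rows, grouped by role) in 4 comparisons (columns); red is higher and blue lower in the group named first, and bold values were called. Slc25a4, Slc25a11, Slc25a12 and Slc25a26 were called higher in both muscles than in myotubes, and Slc25a24, Slc25a43 and Slc25a14 lower.

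The ADP/ATP carriers exchange cytosolic ADP for matrix ATP, and the paralogs moved apart. The levels of Slc25a4 were 19.28, 19.02 and 18.93 in soleus and 19.65, 19.02 and 19.12 in EDL. For Slc25a4 the myotube arrays gave 16.69, 16.97 and 17, against 16.53, 16.71 and 16.70 for the myoblast arrays. Both muscles lay above both cultures on every array, and soleus and EDL overlapped. Slc25a4, the isoform of heart and skeletal muscle, rose 5.19-fold in EDL (2.38, SE 0.17, adjusted p = 4.4e-07) and 4.56-fold in soleus (2.19, SE 0.17, adjusted p = 8.9e-07) against myotubes. Its difference between myotubes and myoblasts was 0.24, SE 0.17, adjusted p = 0.24, and the groups overlapped. A further probe of Slc25a4 gave 2.93 in EDL and 2.86 in soleus against myotubes. Quantile normalization gave 1.17 in EDL and 1.01 in soleus, and the authors' values gave 1.11 and 0.96, where the soleus value was no longer called.

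Slc25a5 read 14.95, 15.35 and 15.06 on the soleus arrays and 14.63, 15.01 and 14.68 on the EDL arrays. In culture, Slc25a5 read 15.68, 15.68 and 15.81 in myotubes and 16.58, 16.64 and 16.63 in myoblasts. Slc25a5, the isoform of dividing cells and of many other tissues, thus ran in the reverse order, highest in myoblasts and lowest in the muscles, whose arrays overlapped. It passed the adjusted p in myotube minus myoblast (-0.89, SE 0.13, adjusted p = 0.00012), EDL minus myotube (-0.95, SE 0.13, adjusted p = 5.7e-05) and soleus minus myotube (-0.60, SE 0.13, adjusted p = 0.0015), but missed the minimum difference in each. Against myoblasts it was called lower in EDL (-1.84, SE 0.13, adjusted p = 2.2e-07) and in soleus (-1.49, SE 0.13, adjusted p = 1.3e-06). Quantile and spike-in scaling turned its differences of myotubes from myoblasts and of each muscle from myotubes into calls.

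The difference of Slc25a4 from Slc25a5 within an array averaged 3.95 ± 0.34 in soleus, 4.49 ± 0.51 in EDL, 1.16 ± 0.14 in myotubes and 0.03 ± 0.07 in myoblasts (SD, n = 3 each). Its level depends on both probes, so the change between groups is what can be compared. It grew by 3.33 in EDL over myotubes, by 2.79 in soleus over myotubes and by 1.13 in myotubes over myoblasts. None of these groups overlapped, and each had an exact permutation p of 0.1, the smallest that 3 arrays against 3 allow (0.13 after adjustment over 16 such tests).

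**Figure D2:**
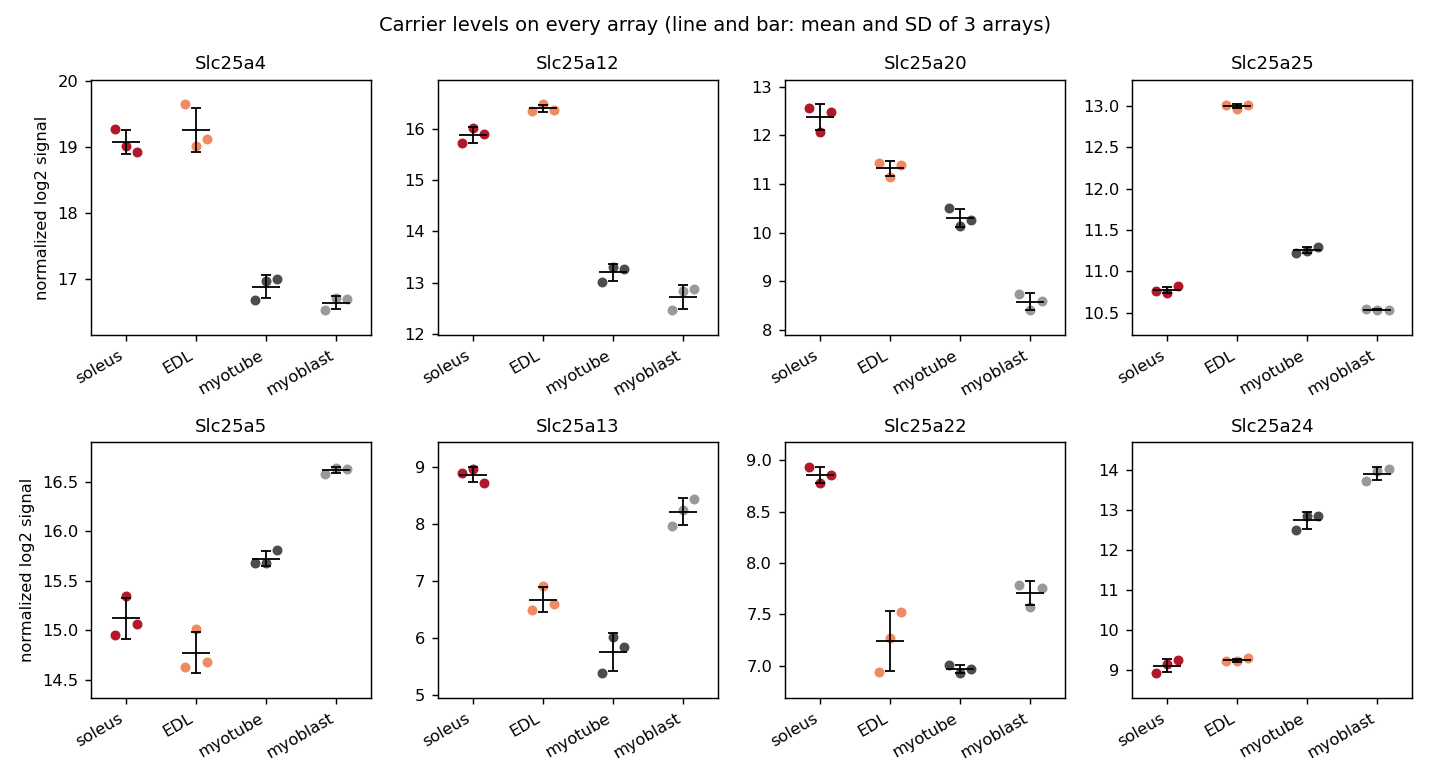
Normalized log2 signal (y axis) of 8 carriers on each of the 12 arrays, by group (x axis); points are arrays, and the line and bar are the mean and SD of 3 arrays. Slc25a4 and Slc25a12 lie higher in both muscles than in both cultures, Slc25a5 and Slc25a24 lie lower, and Slc25a13, Slc25a22 and Slc25a20 lie higher and Slc25a25 lower in soleus than in EDL.

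Slc25a3 imports the phosphate that the ATP synthase joins to ADP, and its gene is known for a muscle form that differs from the common one by an alternative exon. The levels of Slc25a3 were 16.22, 16.20 and 16.49 in soleus and 16.05, 16.21 and 16.27 in EDL. For Slc25a3 the myotube arrays gave 15.07, 15.33 and 15.37, against 14.66, 14.80 and 14.92 for the myoblast arrays. The groups ran from soleus and EDL, which overlapped, through myotubes to myoblasts. Slc25a3 rose in soleus over myotubes (1.04, SE 0.12, adjusted p = 1.9e-05), while the difference of EDL from myotubes was 0.92, SE 0.12, adjusted p = 4.8e-05 and that of myotubes from myoblasts was 0.46, SE 0.12, adjusted p = 0.0063. Quantile normalization (0.59), spike-in scaling (-0.14) and the authors' values (0.65) each ended the soleus call. It was also lost without myotube replicate 1 (0.95) or soleus replicate 3 (0.95).

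The 3 probes of Slc25a3 did not agree in myotubes against myoblasts, a pattern picked out after its values were seen. The probe with the highest signal, described above, lies at chr10:90548015-90548556 in build mm8 (minus strand, a span longer than the probe). The next, at chr10:90552004-90552061 on the same strand, read 15.08, 15.08 and 15.22 in soleus and 14.98, 14.94 and 15.03 in EDL. On that probe the myotube arrays read 14.29, 14.32 and 14.29, against 9.32, 9.14 and 9.23 for the myoblast arrays. Myoblasts thus stood far below the other groups. The myotube signal was 33.5-fold higher than the myoblast signal (difference 5.07, SE 0.08, adjusted p = 1.4e-11 over 28617 probes), and a difference of 5 or more was reached by 1.57% of all probes in that comparison. Against myotubes the same probe differed by 0.69 in EDL and 0.83 in soleus (SE 0.08 each).

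The dimmest Slc25a3 probe read 8.29, 7.93 and 7.92 in soleus and 7.26, 7.29 and 7.26 in EDL. Its myotube values were 6.74, 6.19 and 6.23, against myoblast values of 7.44, 7.52 and 7.14. Myotubes were here the lowest group, 0.98 below myoblasts (SE 0.17, adjusted p = 0.00047). Averaging all 3 probes gave a difference of 1.52 between myotubes and myoblasts, which was called. No gene models of build mm8 were used here, so which exons the probes cover was not determined.

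**Figure D3:**
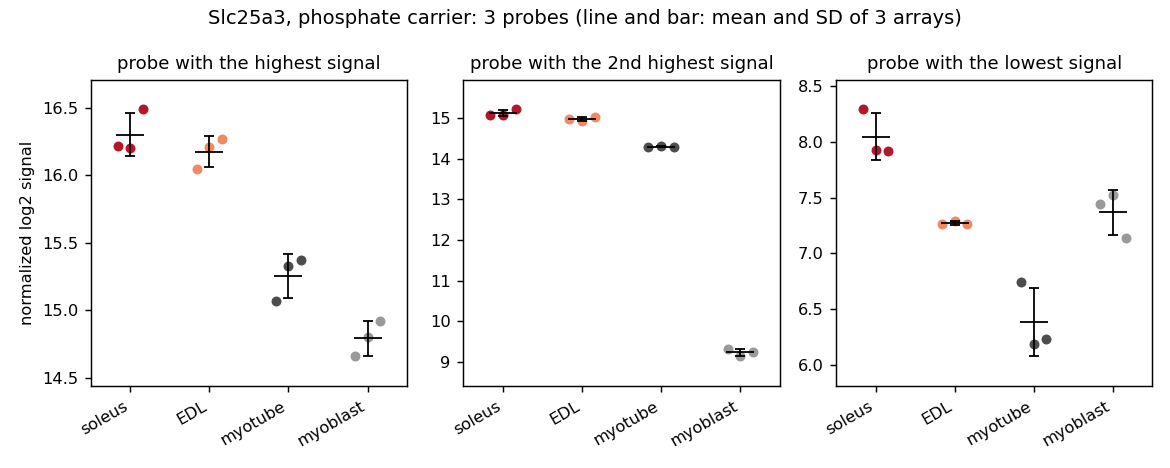
Normalized log2 signal (y axis) of the 3 probes of Slc25a3 on each array, by group (x axis, each panel with its own scale); the line and bar are the mean and SD of 3 arrays. On the probe of the middle panel the myotubes stood at 14.29 to 14.32, against 9.14 to 9.32 for the myoblasts.

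The ATP-Mg/phosphate carriers exchange ATP-Mg for phosphate under control of calcium and so set the adenine nucleotide content of the matrix. Their 2 tested members parted. Slc25a24 read 8.92, 9.15 and 9.25 on the soleus arrays and 9.22, 9.21 and 9.29 on the EDL arrays. In culture, Slc25a24 read 12.50, 12.87 and 12.87 in myotubes and 13.74, 13.99 and 14.04 in myoblasts. Slc25a24 was highest in myoblasts, next in myotubes and lowest in the muscles, which overlapped. It fell 12.4-fold in soleus (-3.64, SE 0.13, adjusted p = 2.4e-09) and 11.3-fold in EDL (-3.50, SE 0.13, adjusted p = 3e-09) against myotubes, and in myotubes against myoblasts (-1.18, SE 0.13, adjusted p = 1.9e-05). A dimmer probe of Slc25a24, well above background on 1 soleus and 0 EDL arrays, gave -3.06, -4.11 and -1.03 in the same 3 comparisons.

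The levels of Slc25a25 were 10.76, 10.74 and 10.82 in soleus and 13.01, 12.97 and 13.01 in EDL. For Slc25a25 the myotube arrays gave 11.22, 11.25 and 11.30, against 10.54, 10.53 and 10.53 for the myoblast arrays. Slc25a25 was highest in EDL by a wide margin, and no groups overlapped. It was 4.66-fold lower in soleus than in EDL (-2.22, SE 0.06, adjusted p = 9.7e-09), the lowest of the 38 members in that comparison, and rose in EDL over myotubes (1.74, SE 0.06, adjusted p = 2e-09). Soleus minus myotube was -0.48, SE 0.06, adjusted p = 4.4e-05 and myotube minus myoblast 0.72, SE 0.06, adjusted p = 2.4e-06, both short of the minimum difference. All 3 probes of Slc25a25 gave a soleus minus EDL difference between -2.30 and -2.17. Their EDL minus myotube differences ran from 0.81 to 1.74, and the other probes gave -1.35 and -1.15 in soleus minus myotube, past the minimum. Spike-in scaling gave 0.77 in EDL minus myotube, which was not called, and -1.66 in soleus minus myotube, which was.

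Of the 6 nucleotide and cofactor carriers described here, 3 rose and 1 fell in soleus against myotubes (beside 26% higher and 19.3% lower of all genes). In EDL against myotubes 1 rose and 1 fell (beside 28.4% and 19.6%), and in myotubes against myoblasts 2 rose and 1 fell (beside 19.3% and 16.1%). Under spike-in scaling none of these rises in soleus or EDL was called. Slc25a33 and Slc25a36 import pyrimidine nucleotides, which mitochondrial RNA and DNA synthesis need. Slc25a33 read 13.75, 13.75 and 13.85 on the soleus arrays and 13.56, 13.50 and 13.58 on the EDL arrays. In culture, Slc25a33 read 12.75, 12.70 and 12.75 in myotubes and 12.01, 11.71 and 11.83 in myoblasts. Slc25a33 was higher in the muscles than in myotubes, and in myotubes than in myoblasts, with no overlap. It rose in soleus over myotubes (1.05, SE 0.08, adjusted p = 1.2e-06), and EDL minus myotube was 0.81, SE 0.08, adjusted p = 8.3e-06, short of the minimum difference. With spike-in scaling these became -0.14 and -0.15.

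The levels of Slc25a36 were 9.97, 9.63 and 9.71 in soleus and 9.48, 9.32 and 9.24 in EDL. For Slc25a36 the myotube arrays gave 8.55, 8.62 and 8.35, against 6.96, 7.18 and 6.84 for the myoblast arrays. Slc25a36 followed the same order without overlap of any groups. It rose in myotubes over myoblasts (1.51, SE 0.13, adjusted p = 2.4e-06) and in soleus over myotubes (1.26, SE 0.13, adjusted p = 7.5e-06), with 0.84, SE 0.13, adjusted p = 0.00016 in EDL over myotubes. Spike-in scaling gave 0.08 in soleus over myotubes, which was not called. A probe of nearly equal signal read 9.38, 9.22 and 9.06 in soleus and 7.82, 7.72 and 7.66 in EDL, with 8.91, 8.97 and 8.91 in myotubes. It put EDL below myotubes by 1.20 (SE 0.10) and soleus above EDL by 1.49 (SE 0.10), so the place of EDL depended on the probe. On the brightest probes, the Slc25a36 minus Slc25a33 difference changed by 0.63 in myotubes over myoblasts. It changed by 0.22 or less between the other pairs of groups compared, which overlapped. The Slc25a36 probe that put EDL below myotubes was not used for this difference, so its changes that involve EDL also depend on the probe.

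Slc25a42 read 5.96, 6.01 and 6.20 on the soleus arrays and 5.33, 5.74 and 5.86 on the EDL arrays. In culture, Slc25a42 read 3.68, 3.98 and 4.09 in myotubes and 3.35, 2.43 and 2.36 in myoblasts. Slc25a42, the coenzyme A carrier, was dim, and well above background on 0 myoblast and 2 myotube arrays. Its signal was at least 2.3-fold higher in myotubes than in myoblasts (1.20, SE 0.25, adjusted p = 0.0017, 95% interval 0.64 to 1.76), a value equal to the fitted fold because the dim probe's own signal set it, and rose in soleus (2.14, SE 0.25, adjusted p = 2.3e-05) and EDL (1.73, SE 0.25, adjusted p = 0.00011) over myotubes. Background correction by normexp, which raises dim signals, gave -1.12 in myotubes minus myoblasts. All of these calls were lost under spike-in scaling, at 0.82, 0.96 and 0.76.

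The levels of Slc25a16 were 10.03, 10.00 and 10.05 in soleus and 10.61, 10.61 and 10.25 in EDL. For Slc25a16 the myotube arrays gave 9.88, 10.11 and 10.06, against 8.78, 8.96 and 9.34 for the myoblast arrays. Slc25a16, a carrier linked to coenzyme A in yeast, was lowest in myoblasts, and only soleus and myotubes overlapped. Its myotube minus myoblast difference was 0.99, SE 0.15, adjusted p = 0.0002, just under the minimum, and it was not called between the other groups compared with myotubes or between the muscles.

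Slc25a17 read 11.63, 11.20 and 11.53 on the soleus arrays and 11.40, 11.21 and 11.43 on the EDL arrays. In culture, Slc25a17 read 12.36, 12.30 and 12.38 in myotubes and 13.58, 13.63 and 13.63 in myoblasts. Slc25a17, the peroxisomal carrier of coenzyme A, FAD and NAD, was highest in myoblasts and lowest in the muscles, which overlapped. It fell in myotubes against myoblasts (-1.26, SE 0.11, adjusted p = 3.2e-06). The differences of the muscles from myotubes were -1.0, SE 0.11, adjusted p = 1.5e-05 in EDL and -0.89, SE 0.11, adjusted p = 3.6e-05 in soleus, at or just under the minimum and not called. Of its other kept probes, 1 gave -1.10 in EDL and -1.14 in soleus, past the minimum, and 1 gave -0.78 and -0.80. Under spike-in scaling Slc25a17 was called lower in EDL (-1.96) and in soleus (-2.08) than in myotubes.

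The levels of Slc25a32 were 8.74, 8.49 and 8.58 in soleus and 8.57, 8.43 and 8.33 in EDL. For Slc25a32 the myotube arrays gave 9.75, 9.69 and 9.81, against 10.14, 10.21 and 10.47 for the myoblast arrays. Slc25a32, which carries folate and FAD, was again lowest in the muscles, which overlapped. It fell in EDL (-1.31, SE 0.11, adjusted p = 1.5e-06) and soleus (-1.15, SE 0.11, adjusted p = 4.4e-06) against myotubes, and its myotube minus myoblast difference was -0.52, SE 0.11, adjusted p = 0.0019.

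Slc25a20 exchanges acylcarnitines for carnitine and so admits long-chain fatty acids to oxidation. Slc25a20 read 12.57, 12.07 and 12.47 on the soleus arrays and 11.44, 11.15 and 11.38 on the EDL arrays. In culture, Slc25a20 read 10.50, 10.13 and 10.25 in myotubes and 8.74, 8.40 and 8.59 in myoblasts. The groups stood in the order soleus, EDL, myotube and myoblast without overlap. Slc25a20 was the only member called higher in all 4 of these steps: soleus over EDL (1.04, SE 0.16, adjusted p = 0.00065), soleus over myotubes (2.08, SE 0.16, adjusted p = 7.6e-07), EDL over myotubes (1.03, SE 0.16, adjusted p = 0.00016) and myotubes over myoblasts (1.71, SE 0.16, adjusted p = 4.6e-06). Several of these values lie close to the minimum difference: leaving out soleus replicate 1 gave 0.94 and EDL replicate 2 gave 0.96 in soleus minus EDL, and leaving out myotube replicate 2 gave 0.95 and EDL replicate 1 gave 0.97 in EDL minus myotube. Spike-in scaling gave 0.83 in soleus minus EDL, 0.89 in soleus minus myotube and 0.07 in EDL minus myotube, none of them called.

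The levels of Slc25a29 were 10.46, 10.93 and 10.99 in soleus and 10.70, 10.85 and 11.01 in EDL. For Slc25a29 the myotube arrays gave 11.91, 12.41 and 12.39, against 10.35, 10.61 and 10.70 for the myoblast arrays. Slc25a29, a carrier of basic amino acids in mitochondria, was highest in myotubes, where all arrays lay above those of the other groups. It rose in myotubes over myoblasts (1.68, SE 0.18, adjusted p = 1.6e-05) and fell in soleus (-1.44, SE 0.18, adjusted p = 4.2e-05) and EDL (-1.39, SE 0.18, adjusted p = 5.4e-05) against myotubes. The muscles and myoblasts overlapped. Spike-in scaling gave 1.30 in myotubes over myoblasts, which was not called. The related Slc25a45 fell by 1.27 in soleus and by 1.15 in EDL against myotubes, and its other differences were not called.

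Of 9 tested amino acid carriers, 5 rose and none fell in soleus against myotubes, beside 26% of all genes higher and 19.3% lower. In EDL against myotubes 3 rose and none fell, beside 28.4% and 19.6%. In myotubes against myoblasts none rose and 1 fell, beside 19.3% and 16.1%. Under spike-in scaling the rises of Slc25a12 and Slc25a13 in soleus and of Slc25a12 and Slc25a26 in EDL kept their calls. Slc25a12 and Slc25a13 send aspartate out in exchange for glutamate, the step that drives the malate-aspartate shuttle in one direction; Slc25a12 is the form of muscle and brain, and Slc25a13 the form of liver. Slc25a12 read 15.71, 16.02 and 15.89 on the soleus arrays and 16.35, 16.47 and 16.36 on the EDL arrays. In culture, Slc25a12 read 13.01, 13.31 and 13.27 in myotubes and 12.46, 12.83 and 12.88 in myoblasts. Both muscles lay far above the cultures, and no groups overlapped. Slc25a12 rose 9.18-fold in EDL (3.20, SE 0.13, adjusted p = 6.5e-09), the highest difference of any member in that comparison, and 6.39-fold in soleus (2.68, SE 0.13, adjusted p = 2.7e-08). Its myotube minus myoblast difference was 0.47, SE 0.13, adjusted p = 0.01 and its soleus minus EDL difference -0.52, SE 0.13, adjusted p = 0.013, both short of the minimum. A dimmer probe gave 4.85 in EDL and 3.39 in soleus over myotubes. It also gave -1.46 in soleus minus EDL and 1.16 in myotube minus myoblast, both past the minimum.

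The levels of Slc25a13 were 8.91, 8.98 and 8.72 in soleus and 6.49, 6.92 and 6.60 in EDL. For Slc25a13 the myotube arrays gave 5.38, 6.02 and 5.84, against 7.97, 8.25 and 8.44 for the myoblast arrays. Slc25a13 was highest in soleus, then myoblasts, then EDL, and lowest in myotubes, with no overlap. It fell 5.55-fold in myotubes against myoblasts (-2.47, SE 0.19, adjusted p = 9.9e-07) and rose 8.72-fold in soleus over myotubes (3.12, SE 0.19, adjusted p = 1.2e-07). It was 4.6-fold higher in soleus than in EDL (2.20, SE 0.19, adjusted p = 1.3e-05), the highest difference of any member there, and EDL minus myotube was 0.92, SE 0.19, adjusted p = 0.0012. The Slc25a12 minus Slc25a13 difference within an array changed by -2.72 in soleus against EDL, by -0.45 in soleus against myotubes, by 2.27 in EDL against myotubes and by 2.94 in myotubes against myoblasts, each with no overlap and the smallest exact permutation p of 0.1.

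Slc25a22 read 8.93, 8.78 and 8.86 on the soleus arrays and 6.94, 7.27 and 7.52 on the EDL arrays. In culture, Slc25a22 read 7.01, 6.93 and 6.97 in myotubes and 7.79, 7.57 and 7.76 in myoblasts. Slc25a22, a glutamate carrier, was higher in soleus than in all other groups, and EDL and myotubes overlapped. It rose in soleus over EDL (1.61, SE 0.13, adjusted p = 1.1e-05) and over myotubes (1.89, SE 0.13, adjusted p = 4.3e-07), with -0.74, SE 0.13, adjusted p = 0.00068 in myotubes minus myoblasts. Spike-in scaling gave 0.71 in soleus over myotubes, which was not called, and -1.12 in myotubes minus myoblasts, which was. The other glutamate carrier, Slc25a18, was dim and uneven, with a soleus minus EDL difference of 1.43 (SE 0.63, adjusted p = 0.12), and was called in none of the 4 comparisons.

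The levels of Slc25a26 were 11.43, 11.34 and 11.40 in soleus and 11.89, 11.88 and 11.94 in EDL. For Slc25a26 the myotube arrays gave 9.49, 9.57 and 9.38, against 8.57, 8.64 and 8.50 for the myoblast arrays. Slc25a26, which imports S-adenosylmethionine, the methyl donor, was highest in EDL, then soleus, myotubes and myoblasts without overlap. It rose 5.37-fold in EDL (2.43, SE 0.07, adjusted p = 6.6e-10) and 3.76-fold in soleus (1.91, SE 0.07, adjusted p = 4e-09) over myotubes, and spike-in scaling left 0.73 in soleus, which was not called. Of the remaining amino acid carriers, Slc25a2, an ornithine carrier, rose by 1.55 in EDL and 1.09 in soleus at a dim signal, on 2 of 3 arrays above background in each, and spike-in scaling ended both calls, at 0.59 in EDL and -0.09 in soleus. Slc25a15, the main ornithine carrier, Slc25a38, a glycine carrier needed for haem synthesis, and Slc25a44, which carries branched-chain amino acids, were not called in the 4 comparisons, with differences between -0.56 and 0.83. Under spike-in scaling Slc25a44 was called lower in soleus than in myotubes (-1.16).

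Among the di- and tricarboxylate carriers, Slc25a1 and Slc25a10 fell and Slc25a11 rose. Slc25a1 exports citrate, the source of cytosolic acetyl-CoA for lipid synthesis. Slc25a1 read 7.44, 7.86 and 8.06 on the soleus arrays and 7.11, 7.57 and 7.64 on the EDL arrays. In culture, Slc25a1 read 8.53, 8.84 and 8.76 in myotubes and 10.67, 10.86 and 10.98 in myoblasts. Myoblasts lay highest and the muscles, which overlapped, lowest. Slc25a1 fell 4.37-fold in myotubes against myoblasts (-2.13, SE 0.19, adjusted p = 3.2e-06) and in EDL against myotubes (-1.27, SE 0.19, adjusted p = 0.00013). In soleus minus myotube it was -0.93, SE 0.19, adjusted p = 0.0012.

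The levels of Slc25a10 were 9.39, 10.03 and 10.00 in soleus and 8.96, 9.51 and 9.41 in EDL. For Slc25a10 the myotube arrays gave 9.94, 10.66 and 10.59, against 12.43, 12.93 and 13.02 for the myoblast arrays. Slc25a10 exchanges malate and succinate for phosphate, and ran in the same order, with soleus overlapping both EDL and myotubes. It fell 5.28-fold in myotubes against myoblasts (-2.40, SE 0.26, adjusted p = 1.7e-05) and in EDL against myotubes (-1.10, SE 0.26, adjusted p = 0.0032), and the EDL call was lost without myotube replicate 2 (-0.97) or EDL replicate 1 (-0.94).

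Slc25a11 read 16.86, 16.78 and 16.75 on the soleus arrays and 16.83, 16.78 and 16.86 on the EDL arrays. In culture, Slc25a11 read 14.54, 14.57 and 14.55 in myotubes and 14.18, 14.25 and 14.11 in myoblasts. Slc25a11 exchanges oxoglutarate for malate, the partner step of the malate-aspartate shuttle. The muscles overlapped and lay above both cultures. Slc25a11 rose 4.83-fold in EDL (2.27, SE 0.07, adjusted p = 5.5e-10) and 4.73-fold in soleus (2.24, SE 0.07, adjusted p = 6.7e-10), and soleus minus EDL was -0.03 (95% interval -0.18 to 0.12).

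The mitoferrins Slc25a28 and Slc25a37 import iron, and Slc25a37 is the form of red cell precursors. Slc25a28 rose in EDL (1.89, SE 0.10, adjusted p = 5.1e-08) and soleus (1.69, SE 0.10, adjusted p = 1.3e-07) over myotubes, and spike-in scaling ended both calls, at 0.92 in EDL and 0.51 in soleus. The levels of Slc25a37 were 10.94, 10.94 and 10.86 in soleus and 11.72, 11.55 and 11.56 in EDL. For Slc25a37 the myotube arrays gave 12.50, 12.70 and 12.59, against 12.27, 12.33 and 12.34 for the myoblast arrays. Slc25a37 was lowest in soleus and no groups overlapped. It fell in soleus against myotubes (-1.68, SE 0.08, adjusted p = 1.8e-08), and EDL minus myotube was -0.99, SE 0.08, adjusted p = 1.1e-06. A dimmer probe gave -1.83 in EDL minus myotube and -0.75 in myotube minus myoblast. The Slc25a37 minus Slc25a28 difference changed by -3.38 in soleus and -2.87 in EDL against myotubes, without overlap (exact permutation p of 0.1 each, the smallest possible). Against myotubes, erythroid markers moved the other way. Their summed signal was 13300 to 17400 in soleus and 28100 to 36300 in EDL, against 119 to 184 in myotubes. Between the muscles, both their sum and Slc25a37 (-0.70, SE 0.08, not called) were lower in soleus. The glutathione carriers Slc25a39 and Slc25a40 were called in none of the 4 comparisons on their brightest probes, with differences between -0.78 and 0.25. A dimmer probe of Slc25a40 gave -1.31 in soleus and -1.03 in EDL against myotubes (SE 0.40 each), past the minimum. It was well above background on 2 arrays of each muscle. Under spike-in scaling both carriers were called lower in soleus than in myotubes, Slc25a39 at -1.39 and Slc25a40 at -1.72. That scaling also called Slc25a39 lower in myotubes than in myoblasts (-1.16) and Slc25a40 lower in EDL than in myotubes (-1.45).

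The carriers that resemble the uncoupling proteins divided. Slc25a14 read 9.29, 8.97 and 9.09 on the soleus arrays and 9.93, 9.64 and 9.68 on the EDL arrays. In culture, Slc25a14 read 11.33, 11.35 and 11.18 in myotubes and 11.15, 11.15 and 10.90 in myoblasts. No groups overlapped. Slc25a14 was higher in the cultures than in the muscles and fell in soleus (-2.17, SE 0.12, adjusted p = 5.6e-08) and EDL (-1.54, SE 0.12, adjusted p = 7.9e-07) against myotubes. Slc25a27 rose in EDL over myotubes (1.19) and was 0.62 in soleus, but its 2 other kept probes gave -0.27 and 0.18 in EDL and -0.35 and -0.13 in soleus. Spike-in scaling gave 0.22 in EDL, which was not called. In myotubes over myoblasts the 2 other probes of Slc25a27 gave 2.29 (SE 0.11) and 2.38 (SE 0.14), past the minimum. The brightest probe gave 0.92 (SE 0.11) there, which was not called. The levels of Slc25a30 were 7.81, 7.90 and 7.86 in soleus and 9.0, 8.88 and 8.86 in EDL. For Slc25a30 the myotube arrays gave 7.52, 7.22 and 7.36, against 9.71, 9.52 and 9.70 for the myoblast arrays. Slc25a30 was highest in myoblasts and EDL. It fell in myotubes against myoblasts (-2.27, SE 0.09, adjusted p = 1e-08), rose in EDL over myotubes (1.55, SE 0.09, adjusted p = 1.3e-07) and was lower in soleus than in EDL (-1.06, SE 0.09, adjusted p = 1.9e-05). Its other brighter probe gave -0.57 in EDL minus myotube, with an SE of 0.88 set by myotube replicate 1 at 10.82, against 6.73 and 6.67 on the other myotube arrays. That probe gave -1.68 in soleus minus myotube, against 0.49 on the probe described, and spike-in scaling gave 0.58 in EDL minus myotube, which was not called.

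Slc25a43 read 3.01, 2.12 and 3.23 on the soleus arrays and 2.89, 2.23 and 2.46 on the EDL arrays. In culture, Slc25a43 read 5.96, 5.91 and 6.05 in myotubes and 6.99, 6.80 and 7.25 in myoblasts. Slc25a43, a carrier of unassigned substrate, was well above background on no soleus or EDL array with this probe. It was at least 6.63-fold lower in soleus than in myotubes (fitted difference -3.19, SE 0.27, adjusted p = 1.8e-06). The fitted EDL minus myotube difference was -3.44, SE 0.27, adjusted p = 9.1e-07, and a dimmer probe, above background on 1 EDL array, gave -1.84. Slc25a43 also fell in myotubes against myoblasts (-1.04, SE 0.27, adjusted p = 0.0064). With normexp background correction no comparison called it, and soleus minus myotube became 0.70.

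The levels of Slc25a35 were 8.14, 7.75 and 7.85 in soleus and 8.29, 8.21 and 8.33 in EDL. For Slc25a35 the myotube arrays gave 7.27, 6.99 and 7.16, against 6.34, 6.23 and 5.73 for the myoblast arrays. Slc25a35, also unassigned, rose in myotubes over myoblasts (1.04, SE 0.16, adjusted p = 0.00024) and in EDL over myotubes (1.13, SE 0.16, adjusted p = 0.0001), with 0.77, SE 0.16, adjusted p = 0.0016 in soleus over myotubes. The first of these values was under the minimum without myoblast replicate 3 (0.86) or myotube replicate 1 (0.98). Spike-in scaling ended both calls, at 0.66 in myotubes over myoblasts and 0.17 in EDL over myotubes, and normexp gave -0.20 in myotubes over myoblasts. A dimmer probe gave 2.50 in myotubes over myoblasts, and 1.28 in EDL and 1.36 in soleus over myotubes. Slc25a34, dim and unassigned, rose by 1.24 in EDL and 1.59 in soleus over myotubes, and spike-in scaling ended both calls, at 0.27 and 0.41. Slc25a46, a protein of the outer membrane that acts in mitochondrial division, differed by no more than 0.32 in the 4 comparisons on its brightest probe. A dimmer probe, above background on every array, gave -1.31 in soleus and -1.19 in EDL against myotubes, and another gave 0.85 in myotubes against myoblasts. Under spike-in scaling the brightest probe gave -1.43 in soleus minus myotube, which was called.

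Between the muscles, then, Slc25a13, Slc25a22 and Slc25a20 were higher in soleus, and those lower included Slc25a25 and Slc25a30. The 95% interval of the difference lay within 1 log2 unit of 0 for 28 of the 32 members not called. Among markers of other cells, 4 of 5 adipocyte genes were higher in soleus, with sums of 115000 to 132000 in soleus and 80700 to 85700 in EDL. Likewise 2 of 7 Schwann cell genes were higher, with sums of 36500 to 38200 in soleus and 17700 to 18000 in EDL. Cidea, from the list of brown adipocyte markers, was 3.28 higher, while Ucp1 and Elovl3 were well above background on no array of either muscle. Going the other way, 1 of 3 measured erythroid genes was lower in soleus, with sums of 13300 to 17400 in soleus and 28100 to 36300 in EDL. The part of these cells in the carrier differences was not tested. With spike-in scaling Slc25a13 and Slc25a25 kept their calls, and the values were 1.39 for Slc25a22, 0.83 for Slc25a20 and -1.27 for Slc25a30, which were not called.

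**Figure D4:**
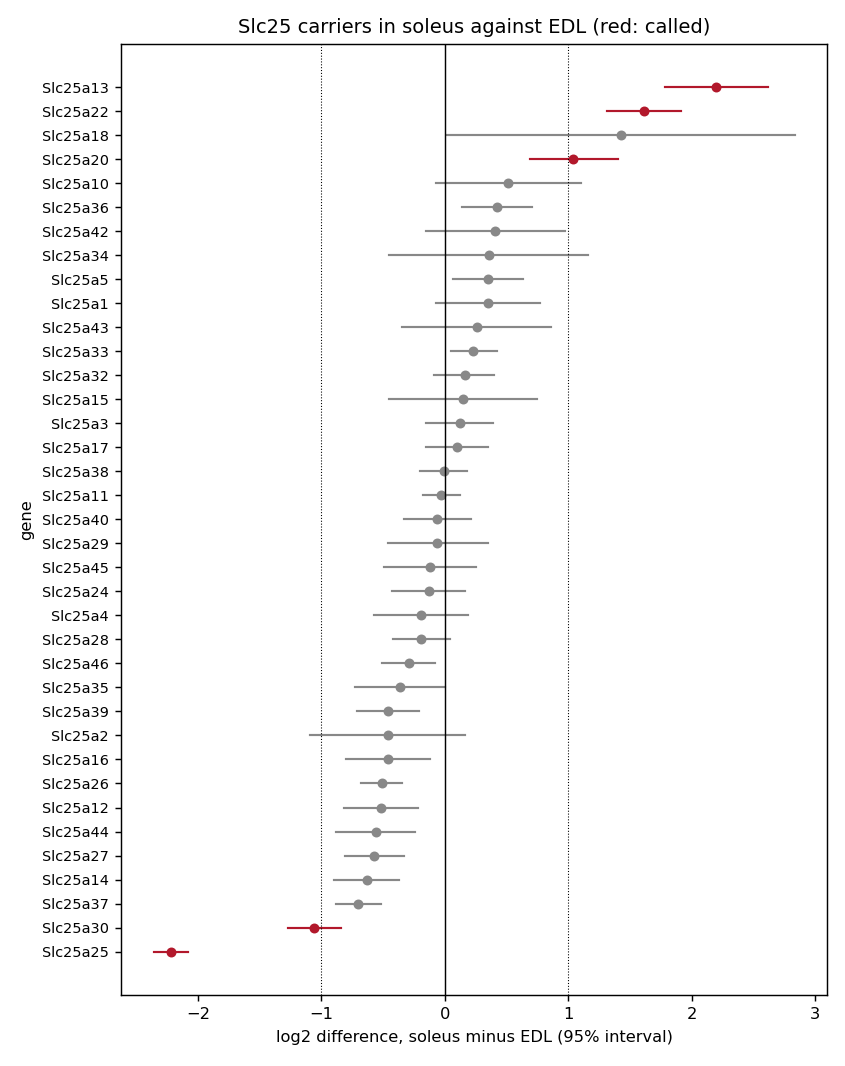
Log2 difference of soleus minus EDL (x axis) for 37 tested carriers (y axis, sorted); points are differences, lines their 95% intervals, red marks called members and dotted lines the minimum difference of 1. Slc25a13 lies highest at 2.20 and Slc25a25 lowest at -2.22.

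Genes that work beside the carriers were taken from lists written for this purpose. Of all genes, 28.4% were called higher and 19.6% lower in EDL than in myotubes, and 26% and 19.3% in soleus. In myotubes against myoblasts the shares were 19.3% and 16.1%. Spike-in scaling lowers the list genes by the same values as the carriers, and calls under it are not given for these lists. All 4 soluble enzymes of the malate-aspartate shuttle, Got1, Got2, Mdh1 and Mdh2, rose in both muscles over myotubes, with list medians of 2.31 in soleus and 2.22 in EDL. In myotubes over myoblasts only Mdh1 rose (1.11). Of the carnitine partners of Slc25a20, all 4 rose in soleus and 3 in EDL over myotubes. Cpt1b, the muscle form of the enzyme that makes acylcarnitines, differed by 8.24 in soleus and 7.47 in EDL. Cpt1a, its liver form, fell by 2.67 in myotubes against myoblasts.

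The outer membrane channels Vdac1, Vdac2 and Vdac3 and the pyruvate carrier subunits Mpc1 and Mpc2 rose in EDL over myotubes in all 5 cases, and in soleus in all but Vdac2 (0.78). Mpc2 differed by 2.98 in each muscle. Of 11 genes of the import route that carriers take into the inner membrane, only Timm8b and Timm10b rose in EDL and soleus over myotubes, and Timm8a1 and Tomm40 fell in myotubes against myoblasts. Of 5 carriers with other symbols, 2 were called higher and 1 lower in EDL than in myotubes, and 1 higher and 1 lower in soleus. Among the higher calls in EDL was Ucp1, which was well above background on no EDL or myotube array. Ucp3, the uncoupling protein of muscle, rose by 4.94 in soleus and 5.37 in EDL over myotubes, while Ucp2 fell by 1.12 and 1.73. None of the genes of these 5 lists was called between soleus and EDL except Ucp1, which was well above background on no array of either muscle.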

How the data were processed

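Scanner files were deposited for 12 arrays. Their processed signal is an intensity that, per the file headers, came from version 10.5.1.1 of Agilent Feature Extraction after subtraction of background and spatial detrending. Other columns, per the file headers, flag spots as well above background, saturated or outlying. A deposited table of the authors' intensity values, whose between-array normalization is not stated in the sources used here, served as an alternative.

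Outlier-flagged spots (68 to 140 per array) were left out and no spot was saturated. Spots of 1 probe were averaged (41174 probes). The signal was taken to log2, the array's 75th percentile was subtracted and a constant of 9.71 was added to all values. A probe was kept where every array of some group measured it well above background (28617), and the brightest kept probe stood for its gene (18867 genes). Probes were named through the reference table by accession (24375), symbol (6301) or synonym (2426), and 8072 kept the file's name. Probes carry the design's mm8 coordinates, per the file headers, while promoter coordinates are GRCm38.p6 and come from RefSeq.

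All 12 arrays were fitted in limma 3.58.1 (R 4.3.3; version 1.17.8 of data.table) as 4 group means with no block, giving 8 residual degrees of freedom and 1.75 from the prior. Tests were two-sided, with Benjamini-Hochberg adjustment over all genes. The procedure was tested on simulated data. "At least" marks a bound, used where no array of a group measured the gene well above background; the dim side was set to the higher of the array's lowest well-measured signal and the dim probe's own. Within-array differences between paralogs were compared by an exact permutation test. Same-numbered arrays share a slide, and their deviations from the group means correlated with r of 0.23 to 0.66 across genes in all pairs of groups, so the numbers pair the arrays; whether same-numbered soleus and EDL samples share a mouse is not stated.

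The members, the gene lists and the tests were chosen with earlier results of these data known, so nothing here is independent support for them. Values of every array are given for the ADP/ATP, phosphate, carnitine, ATP-Mg/phosphate, nucleotide, cofactor and aspartate/glutamate carriers and for the 5 highest and 5 lowest called members of each of the 4 comparisons named first. One tested member is counted in the totals but is not reported here. The lists were markers of endothelium, macrophages and leukocytes, connective tissue, adipocytes, brown adipocytes, Schwann cells, erythroid cells, smooth muscle and pericytes, dividing cells and muscle fibres, and 5 lists of partner genes. Alternatives were other scalings (quantile, spike-in), normexp background correction (offset 50), other filters and probe summaries, the authors' values, slide as a block, fits of only the compared groups, no minimum difference, and leaving out arrays.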

Additional observations from a re-analysis of the deposited data

How the results depend on the processing

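Taking the slide as a replicate block called 13 members between myotubes and myoblasts (34.2%, beside 36.1% of all genes, 12 members without it). It called 22 between EDL and myotubes (57.9%, beside 49.2%) and 23 between soleus and myotubes (60.5%, beside 46.4%, 22 members without it). Between soleus and EDL it called 7 (18.4%, beside 10.5%, 6 members without it). The call of none of the 25 carriers given with every array changed. All called members kept their direction on all 3 slides in all 6 comparisons. The calls came from these same slides, so this is no independent check, and the share over all called genes is not given. Leaving out 1 array or 1 slide gave 10 to 13, 21 to 24, 21 to 23 and 4 to 6 called members in these 4 comparisons, and 24 to 26 for EDL and 25 to 27 for soleus against myoblasts. Shares over all genes are not given for these leave-out fits. With no minimum difference the counts were 28 between myotubes and myoblasts, 34 between EDL and myotubes and 16 between soleus and EDL, beside 63.6%, 73.7% and 31.6% of all genes. Normexp called 14 members between soleus and myotubes (36.8%, beside 25.3% of all genes) and 2 between soleus and EDL (5.26%, beside 2.41%), and spike-in scaling called 2 between soleus and EDL (5.26%, beside 4.5%). Against myotubes, spike-in scaling lost 11 of 15 higher calls in soleus and 9 of 14 in EDL, and none of the lower calls. It added 10 lower calls in soleus (Slc25a1, Slc25a5, Slc25a10, Slc25a16, Slc25a17, Slc25a25, Slc25a39, Slc25a40, Slc25a44 and Slc25a46). In EDL it added 4 lower calls (Slc25a5, Slc25a17, Slc25a37 and Slc25a40). Of all genes, 47.6% were then called lower in soleus and 39.7% in EDL, beside 19.3% and 19.6% under the main scaling. Among paralogs, the change of Slc25a4 minus Slc25a5 under quantile normalization was 1.36 for myotubes over myoblasts, and 2.57 for EDL and 2.04 for soleus over myotubes. Normexp gave, for Slc25a12 minus Slc25a13, 2.52 for myotubes over myoblasts, -0.07 for soleus over myotubes and -2.50 for soleus over EDL, -3.12 for Slc25a37 minus Slc25a28 in soleus minus myotube, and for Slc25a36 minus Slc25a33 -0.58 for myotubes over myoblasts, 0.55 for soleus over myotubes and 0.54 for soleus over EDL. Single carriers changed direction as follows, mostly at small differences, and the cause was not tested beyond the construction of each alternative. Spike-in scaling, which lowers all genes of a comparison by 1 value, gave in myotube minus myoblast -0.14 (Slc25a4), -0.01 (Slc25a11), -0.16 (Slc25a14) and -0.10 (Slc25a37). In EDL minus myotube it gave -0.04 (Slc25a3 and Slc25a13), -0.49 (Slc25a16), -0.69 (Slc25a22), -0.15 (Slc25a33) and -0.12 (Slc25a36). In soleus minus myotube it gave -0.14 (Slc25a3 and Slc25a33), -1.17 (Slc25a16), -0.69 (Slc25a30) and -0.41 (Slc25a35). Between soleus and EDL it gave -0.10 (Slc25a3), -0.11 (Slc25a17) and -0.06 (Slc25a32). Normexp gave -0.20 (Slc25a35) and -1.12 (Slc25a42) in myotube minus myoblast, -0.05 (Slc25a16) and 0.70 (Slc25a43) for soleus over myotubes, and for soleus over EDL -0.26 (Slc25a3), -0.01 (Slc25a5), -0.14 (Slc25a17), 0.07 (Slc25a24), -0.20 (Slc25a33) and 0.12 (Slc25a35). The mean over probes gave -0.24 (Slc25a37, myotube minus myoblast), -0.18 (Slc25a36, EDL minus myotube), -0.66 (Slc25a30, soleus minus myotube) and 0.46 (Slc25a24, soleus minus EDL). In EDL minus myotube Slc25a22 was -0.01 by quantile normalization and -0.04 by the authors' values, and Slc25a11 was 0.02 by both in soleus minus EDL. Leaving out arrays turned Slc25a16 for soleus over myotubes (-0.06 to 0.07) and, for soleus over EDL, Slc25a4 (-0.31 to 0.01), Slc25a11 (-0.06 to 0.01) and Slc25a29 (-0.15 to 0.11). Kept probes of a gene shared their direction in 16, 13, 16 and 14 of 18 members with several probes, in the 4 comparisons in the same order as above. Signals near background limit Slc25a2, Slc25a18, Slc25a34, Slc25a42 and Slc25a43, and 3 arrays a group limit the precision of all.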

Other observations

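Some carriers of the family stand on the array under older names and were therefore outside the rule. Slc25a47, listed as AI132487 and known from liver, had a level of 7.95 in soleus and 7.78 in EDL, against 6.28 in myotubes and 6.68 in myoblasts. It was higher in soleus (1.67, SE 0.10) and in EDL (1.5, SE 0.10) than in myotubes. Slc25a51, listed as Mcart1, imports NAD into mitochondria, and its level was 12.18 in soleus, 12.46 in EDL, 12.30 in myotubes and 12.15 in myoblasts. It was called in none of the 6 comparisons.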
